A study of Mus musculus with 11 samples.

Results

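The genes described here encode 6 diacylglycerol kinases, Dgka, Dgkz, Dgkg, Dgkd, Dgke and Dgkh. Dgkg was chosen by its measured difference at day 9 and the other 5 genes as members of its family, so every day 9 contrast of Dgkg is given as a description with no test. An open region belonged to a gene when that gene's span was the nearest protein-coding span, at distance 0 inside it and at most 100 kb outside it. This placed 97 of 111041 regions of the series with the 6 genes (Dgka 3, Dgkz 11, Dgkg 27, Dgkd 21, Dgke 8 and Dgkh 27), and the 6 genes are among 16615 that had a region. Of the 97 regions, 77 lay inside a span and the farthest lay 50533 bp from Dgkh. Nearness does not show which gene a region acts on.

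Open chromatin was profiled by ATAC-seq, in which a transposase cuts and tags accessible DNA, in 11 libraries of mouse spleen CD8 T cells, and the sorted groups carry Tcf7-YFP, a fluorescent reporter of the gene for TCF-1. Cells were sorted by YFP at day 3, cultured further and sorted once more at day 9. The high_to_high group was YFP-high both times (2 libraries), low_to_high was YFP-low and later YFP-high (3 libraries), and low_to_low was YFP-low both times (3 libraries). The 3 further populations had 1 library each. The effector library came from cells activated in culture for 3 days, the antigen_experienced library from CD44+ CD62L+ Tcf7-YFP+ splenocytes, and the naive library from CD44- CD62L+ Tcf7-YFP+ splenocytes. The labels give no strain, age, activating agent or culture conditions, and leave unsaid whether replicates come from different mice or cultures. The p-values may therefore reflect only the spread between preparations.

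Diacylglycerol is made at the membrane when the T cell receptor activates phospholipase C, and it recruits protein kinase C theta and the Ras activator RasGRP1. Diacylglycerol kinases phosphorylate it to phosphatidic acid and thereby limit that branch of receptor signalling. In T cells DGK alpha (Dgka) and DGK zeta (Dgkz) are the isoforms best known for this, and both are linked to anergy. DGK alpha and DGK gamma (Dgkg) are type I enzymes with calcium-binding EF hands, DGK delta (Dgkd) and DGK eta (Dgkh) are type II enzymes with a pleckstrin homology domain, DGK epsilon (Dgke) is the type III enzyme with a preference for arachidonoyl-diacylglycerol, and DGK zeta is a type IV enzyme with ankyrin repeats.

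Promoter sequences are shown first because the family split there. Dgkd, Dgke and, at the outer of its 2 listed starts, Dgkz had a region at the start that was called in all 11 libraries. No called region reached the 250 bases before the start of Dgkg, and none lay at any of the 4 listed starts of Dgka. Each sequence is the 250 bases before a listed transcription start, read 5′ to 3′ on the gene's strand, from RefSeq on GRCm38.p6 (mm10). For Dgkz, Dgkd, Dgke and Dgkg, capitals mark bases inside a called open region. For Dgka, which is shown at its second listed start, capitals mark a TCF/LEF motif.
Dgkz, chr2:91963564-91963813, minus strand: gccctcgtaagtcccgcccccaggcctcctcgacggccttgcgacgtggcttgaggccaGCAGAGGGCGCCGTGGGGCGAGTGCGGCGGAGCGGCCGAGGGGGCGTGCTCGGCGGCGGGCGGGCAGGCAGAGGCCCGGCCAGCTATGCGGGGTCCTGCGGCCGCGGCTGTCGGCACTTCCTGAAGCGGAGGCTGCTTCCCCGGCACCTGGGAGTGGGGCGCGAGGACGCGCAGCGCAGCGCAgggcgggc
Dgkd, chr1:87853037-87853286, plus strand: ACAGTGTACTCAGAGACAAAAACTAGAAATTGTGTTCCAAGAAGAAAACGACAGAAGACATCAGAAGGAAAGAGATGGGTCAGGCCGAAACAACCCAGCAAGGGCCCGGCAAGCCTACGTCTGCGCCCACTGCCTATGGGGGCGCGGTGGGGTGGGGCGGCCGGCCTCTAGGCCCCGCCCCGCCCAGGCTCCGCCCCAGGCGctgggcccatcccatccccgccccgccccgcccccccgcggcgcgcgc
Dgke, chr11:89060749-89060998, minus strand: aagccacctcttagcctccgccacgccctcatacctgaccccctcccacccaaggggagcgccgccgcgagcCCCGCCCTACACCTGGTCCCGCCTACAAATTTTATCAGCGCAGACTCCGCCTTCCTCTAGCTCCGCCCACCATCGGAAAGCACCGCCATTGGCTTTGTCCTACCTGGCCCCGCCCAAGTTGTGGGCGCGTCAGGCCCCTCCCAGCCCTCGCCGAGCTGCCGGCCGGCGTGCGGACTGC
Dgkg, chr16:22657232-22657481, minus strand: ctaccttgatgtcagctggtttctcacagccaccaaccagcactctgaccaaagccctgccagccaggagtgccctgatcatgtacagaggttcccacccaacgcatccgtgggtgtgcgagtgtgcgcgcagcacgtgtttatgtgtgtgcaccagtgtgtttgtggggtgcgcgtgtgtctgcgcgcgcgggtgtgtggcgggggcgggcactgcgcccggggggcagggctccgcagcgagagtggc
Dgka, chr10:128744077-128744326, minus strand: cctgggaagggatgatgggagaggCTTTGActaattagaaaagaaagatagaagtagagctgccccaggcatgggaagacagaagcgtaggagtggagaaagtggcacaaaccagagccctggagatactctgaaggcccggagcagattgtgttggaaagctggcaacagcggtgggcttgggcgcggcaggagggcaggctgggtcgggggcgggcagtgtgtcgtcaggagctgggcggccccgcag

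The open region covered 183 of the 250 bases before the Dgkz start, 202 before the Dgkd start and 178 before the Dgke start. At the outermost Dgkh start, which is described further on, 2 regions covered 161 of the 250 bases. Windows of 300 bases also take in the first 50 transcribed bases. In these, Dgkz held 43 CpG at its outer and 10 at its other listed start, Dgkd 30, Dgke 29, Dgkg 22 and the outermost Dgkh start 40. The median was 7 over 32817 RefSeq promoter windows. The 4 Dgka windows held 4, 17, 28 and 13 CpG. On both strands of the 12 windows of the 6 genes, 6 motifs were searched, which were CTTTGA for TCF/LEF, TGTGGT for RUNX, TGANTCA for AP-1, TGTTTAC for FOXO, GCGTGGGNG for EGR and CCGGAAG for ETS. The only match was CTTTGA before the second Dgka start, and 16% of all windows hold that motif. The shares for the other motifs are 16.8% for RUNX, 7.81% for AP-1, 3.65% for FOXO, 1.9% for EGR and 8.86% for ETS. The sequences of regions away from the starts were not used here.

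The libraries held 20.8 to 59.97 M tags and 46454 to 66117 called peaks. Region values are normalized tag counts, scaled so that each library has 10 M tags, and the weakest peak of a list stood at 2.25 to 4.32, so a region that is not called is not known to be closed. The share of tags in peaks was 9.01 to 10.2% in the 5 YFP-high day 9 libraries, 10.4 to 12.5% in the 3 low_to_low libraries, 9.08% in the effector, 15.8% in the antigen_experienced and 15% in the naive library. Its part in the differences below was not tested. Fits that hold this share as a covariate are given for some regions. Since every YFP-high library had a lower share than every low_to_low library, such a fit separates the share poorly from YFP state. Regions at all 6 CD8 T cell marker genes were called in every library except low_to_high replicate 1, which had 5 of the 6 and none at Cd3g. No region was called in any library at Cd79a, Csf1r or Hbb-bs, which mark B cells, myeloid cells and red cells.

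Of the 97 regions, 30 were called in all 8 day 9 libraries (30.9%, against 31.0% of all 111041 regions) and 15 in all 11 libraries (15.5%, against 21.1%). The 30 were unevenly spread, with 10 at Dgkh, 7 at Dgkd, 5 at Dgkg, 4 at Dgkz, 3 at Dgke and 1 at Dgka. No region of the family was called in all 5 YFP-high and no YFP-low library, a pattern held by 0.0627% of the regions called at day 9, and none was called in all 3 YFP-low and no YFP-high library, a pattern held by 0.103%. The day 9 differences below are therefore differences in level between regions that were called in both YFP states.

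**Figure D1:**
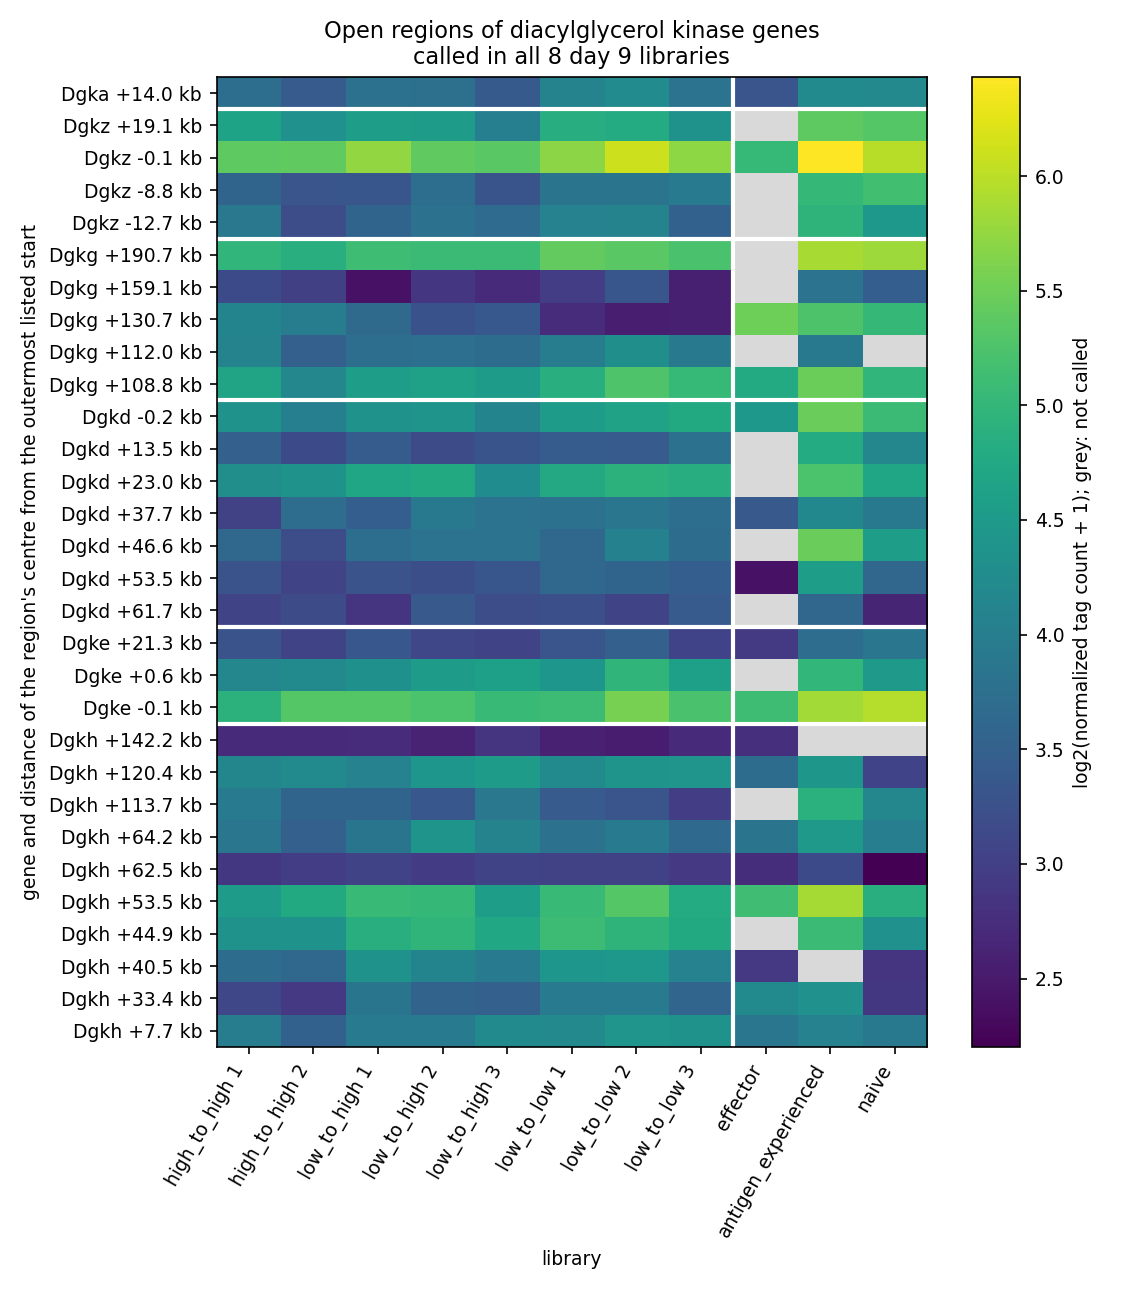
Normalized tag counts on the log2(value + 1) scale of the 30 regions called in all 8 day 9 libraries, with regions as rows, ordered by gene and labelled by distance from the outermost listed start, and libraries as columns. Grey cells are regions not called in that library, all of them in the effector, antigen_experienced and naive columns. The Dgkz and Dgke regions at the start are bright in every column, and the Dgkg region at +130.7 kb darkens towards the low_to_low columns.

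Among the type I genes, Dgkg carried the region by which it was chosen. It lies inside the gene span on chromosome 16, 22526376 to 22526688 (mm10), 130699 bp into the gene from the listed start. Exons and introns were not resolved here. Its normalized tag count was 16.3 and 15 in high_to_high libraries, 11.7, 8.67 and 9.36 in low_to_high libraries, and 5.65, 4.90 and 4.94 in low_to_low libraries. The 3 groups did not overlap, and low_to_high lay between the other groups. In bulk libraries, fewer cells with the region open and less opening per cell cannot be told apart. The values correspond to 42.1 and 89.96 tags in high_to_high, 47.4, 24.0 and 19.5 in low_to_high, and 23.0, 20.5 and 11.5 in low_to_low libraries.

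After each library was centred on its median region, the log2 fold change of this Dgkg region was 1.28 ± 0.19 (SE) for YFP-high against YFP-low, 1.73 ± 0.20 for high_to_high against low_to_low, 0.99 ± 0.18 for low_to_high against low_to_low and -0.74 ± 0.20 for low_to_high against high_to_high. These are the values the gene was chosen by and carry no test. In a fit with the in-peak share as covariate they were 0.80 ± 0.29, 1.35 ± 0.30 and 0.67 ± 0.26 for the contrasts against YFP-low or low_to_low libraries. The 2 contrasts against low_to_low share those 3 libraries. The low_to_low values stood near the lowest value their lists held, which was 2.83, 2.87 and 4.08.

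The reference populations had higher values than any day 9 library in the same Dgkg region. It stood at 44.4 in the effector, 37.3 in the antigen_experienced and 31.6 in the naive library. All 3 values were above the highest day 9 value, 16.3. These values are uncentred, and the share of tags in peaks was 15.8% in the antigen_experienced and 15% in the naive library. Both splenocyte values also exceeded all day 9 values at the Dgkg regions at 22466474 (57.7 and 55.2 against at most 41.8) and 22497967. They did not at 22545122 and 22548204. With 1 library each, these differences have no replicate check.

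**Figure D2:**
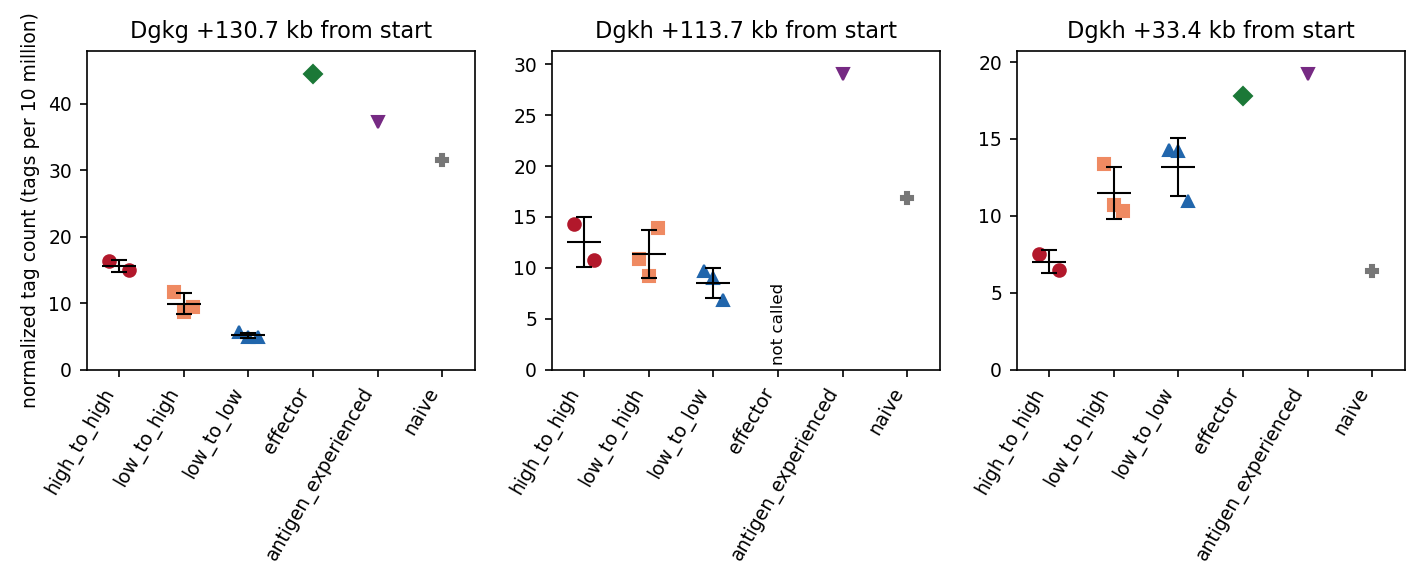
Normalized tag counts by group for the Dgkg region at +130.7 kb (left), the Dgkh region at +113.7 kb (middle) and the Dgkh region at +33.4 kb (right). Each symbol is 1 library, bars are mean ± SD for groups with 2 or 3 libraries, and each panel has its own linear axis from 0. Dgkg falls stepwise across the 3 day 9 groups, the middle Dgkh region overlaps between low_to_high and both other groups, and the right Dgkh region is lowest in high_to_high.

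The other 4 Dgkg regions called in all 8 day 9 libraries did not share this order. The region at 22466474 to 22466676, across the far end of the gene, held 30.8 and 28.1 in high_to_high, 33.9, 32.9 and 32.9 in low_to_high and 41.8, 40.0 and 36.3 in low_to_low libraries. The region at 22548204 to 22548578 held 24.6 and 16.8 in high_to_high, 22.7, 23.7 and 22.1 in low_to_high and 27.9, 37.7 and 32.0 in low_to_low libraries. Both stood highest in low_to_low libraries on this scale, on which the median region of the genome was 0.22 (log2) lower in YFP-high than in YFP-low libraries. The region at 22545122 to 22545376 held 16.1 and 10.3 in high_to_high, 12.0 to 12.5 in low_to_high and 14 to 18.8 in low_to_low libraries, and that at 22497967 to 22498382 ranged from 4.32 to 9.08 over the 8 libraries. Centred log2 fold changes of these 4 regions for YFP-high against YFP-low lay between -0.33 and 0.09. Both centred high_to_high values lay above all low_to_low values in only 1 of the 4, at 22497967. Over all regions, these groups did not overlap in 25.6%, in either direction. All centred low_to_high values lay below all low_to_low values at 22545122 and 22548204. For low_to_high and low_to_low, 11.3% of all regions did not overlap, in either direction. At 22497967 high_to_high differed from low_to_low by 0.41 ± 0.21 (log2) and low_to_high from high_to_high by -0.54 ± 0.21. Across the 8 day 9 libraries their centred values correlated with those of the chosen region at Pearson's r of -0.68 to 0.37, a description over 8 points that share depth and preparation.

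**Figure D3:**
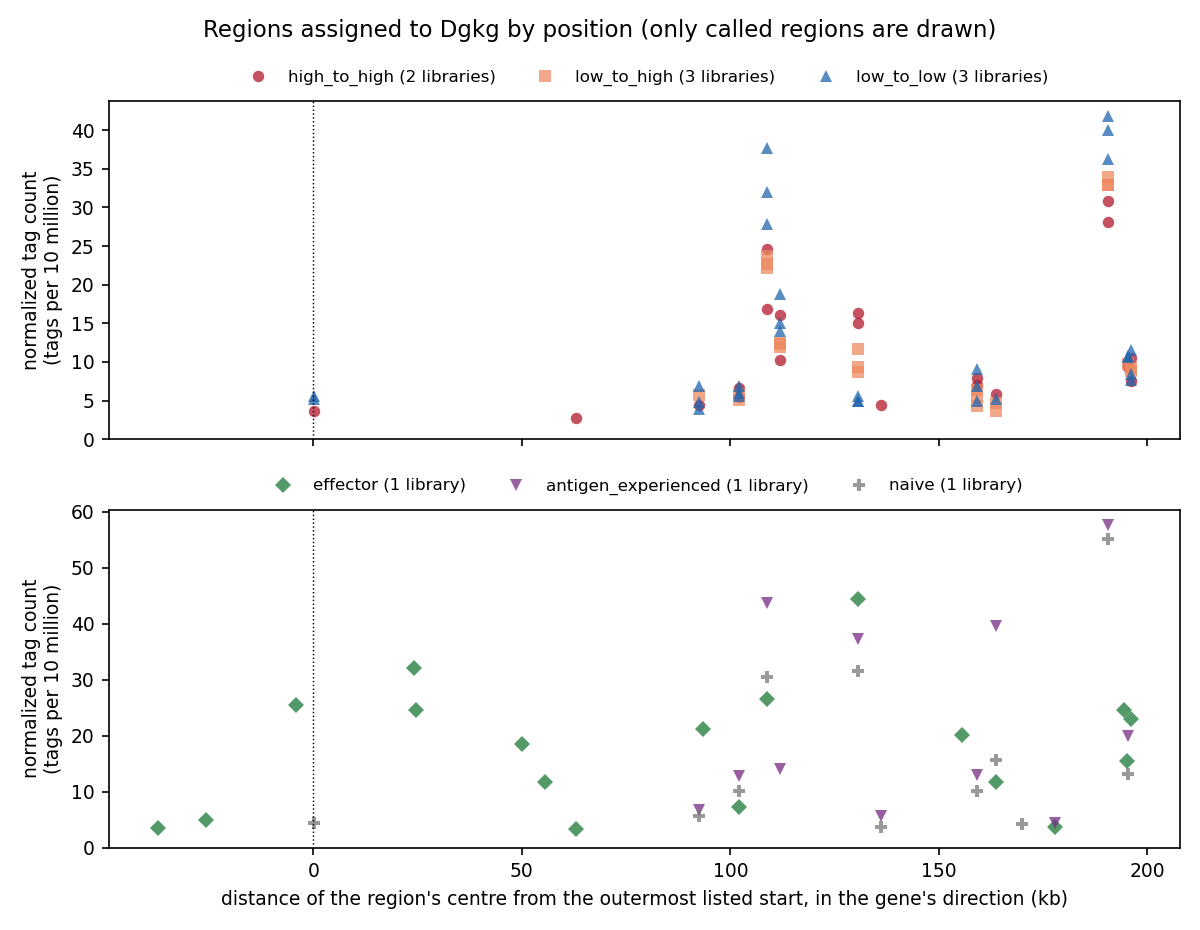
Normalized tag counts of all called Dgkg regions against the distance of the region's centre from the listed start in kb, in the direction of the gene. The upper panel shows the day 9 libraries and the lower panel the effector, antigen_experienced and naive libraries, with 1 symbol per library and region. Day 9 regions lie mostly in the far part of the gene, while 7 regions called in the effector library alone are spread along the gene.

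Other Dgkg regions were called in part of the libraries. The region at 22493432 to 22493668 held 5.81 in high_to_high replicate 1, 3.70 and 4.70 in low_to_high replicates 1 and 2 and 5.16 in low_to_low replicate 1, against 11.8 in the effector, 39.6 in the antigen_experienced and 15.7 in the naive library. The region at the start, 22656878 to 22657187, was called in 4 libraries, at 3.67 in high_to_high replicate 2, 5.61 and 5.16 in low_to_low replicates 2 and 3 and 4.40 in naive cells. Open chromatin at Dgkg was strongest in the far part of the gene in the day 9 and splenocyte libraries, and the region at the start did not exceed 5.61 in any library.

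Regions elsewhere in the genome followed the Dgkg region across the day 9 libraries. By the highest Pearson correlation of centred log2 values over the 8 libraries, 1 region a gene, the 5 most alike lay in Zfp60 (r of 0.998), near Slco3a1 (0.984), near Btg1 (0.979), in Scp2 (0.976) and near Nin (0.975). The Zfp60 region on chromosome 7, 27741006 to 27741247, held 22.3 and 20.9 in high_to_high, 20.1, 18.8 and 18.7 in low_to_high, and 16.5, 17.9 and 15.9 in low_to_low libraries. Its range is narrower than that of Dgkg. Of 34382 other regions, 201 reached an r above 0.9.

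Dgka, the other type I gene, had 3 regions. The strongest, 1183 bp outside the gene at chromosome 10, 128746267 to 128746491, held 51.3 and 47.3 in high_to_high, 54.1, 49.3 and 43.2 in low_to_high and 60.4 and 61.2 in low_to_low replicates 1 and 2, and was not called in low_to_low replicate 3 or in the effector library. It was higher in both splenocyte populations, at 107 in antigen_experienced and 115 in naive cells, and was the strongest region of the whole family. Since it was missing from 1 day 9 library it was not tested. The region at 128730945 to 128731280 inside Dgka was called in all 11 libraries, at 12.2 and 9.67 in high_to_high, 12.7, 12.6 and 9.60 in low_to_high, 16, 18.0 and 13.1 in low_to_low, 8.93 in effector, 17.5 in antigen_experienced and 17.2 in naive cells. Its log2 fold change was -0.22 ± 0.15 for YFP-high against YFP-low (limma adjusted p = 0.737).

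Dgkz, the type IV gene, was most open at the outer of its 2 listed starts, on chromosome 2, 91963572 to 91963754. The gene span reaches past this start to 91976443. The regions at 91972181 and 91976100 thus lie inside the span, at -8761 and -12678 bp from this start. The region held 40.7 and 41.1 in high_to_high, 52.8, 41.0 and 39.6 in low_to_high, 51.0, 68.1 and 51.3 in low_to_low, 31.7 in effector, 85.4 in antigen_experienced and 62.0 in naive cells. The high_to_high values lay below all low_to_low values, while 1 low_to_high library lay among them. After centring, high_to_high differed from low_to_low by -0.16 ± 0.13 (limma adjusted p = 0.736) and YFP-high from YFP-low by -0.17 ± 0.10 (limma adjusted p = 0.691). The other 3 tested Dgkz regions held 8.25 to 27.7 at day 9 and were not called in the effector library. They stood at 40.9, 31.3 and 30.0 in antigen_experienced and 39.0, 34.4 and 21.1 in naive cells, in the order 91944321, 91972181 and 91976100, and their log2 fold changes for YFP-high against YFP-low were -0.20 to -0.03. A region at 91961938 to 91962196, 1496 bp past the outer listed start, was called in all YFP-high libraries at 24.4 to 35.8. It was called in low_to_low only in replicate 3 at 37.8, and in antigen_experienced and naive cells at 49.0 and 37.8. At the other listed start, a region at 91950349 to 91950487 was called only in high_to_high replicate 2 at 9.67 and in naive cells at 18.5.

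Dgke, the type III gene, was likewise most open at its start, on chromosome 11, 89060696 to 89060926. The region held 29.4 and 39.0 in high_to_high, 38.9, 36.5 and 32.4 in low_to_high, 33.2, 46.5 and 36.3 in low_to_low, 33.8 in effector, 56.2 in antigen_experienced and 61.2 in naive cells. The day 9 groups overlapped. The log2 fold change of YFP-high against YFP-low was 0.09 ± 0.11 (limma adjusted p = 0.863). The neighbouring region 609 bp into the gene held 16.8 and 17.8 in high_to_high, 19.0, 21.9 and 23.0 in low_to_high and 20.4, 30.2 and 23.2 in low_to_low libraries, and was not called in the effector library. The third tested Dgke region, at 89039329, held 7.30 to 10.3 at day 9.

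The type II gene Dgkd had 7 regions called in all 8 day 9 libraries. The region at its start, chromosome 1, 87852959 to 87853238, held 19.8 and 15.4 in high_to_high, 19.5, 20 and 16.3 in low_to_high, 21.9, 23.8 and 26.2 in low_to_low, 21.1 in effector, 43.0 in antigen_experienced and 32.9 in naive cells. All 5 YFP-high libraries lay below the 3 low_to_low libraries on the deposited scale, but not after centring, where the log2 fold change was -0.16 ± 0.13 (limma adjusted p = 0.781). The region at 87876113 to 87876413 was the strongest inside the gene at day 9, with 18.6 and 19.7 in high_to_high, 25.0, 26.2 and 18.2 in low_to_high and 26.1, 29.3 and 27.7 in low_to_low libraries, a log2 fold change of -0.22 ± 0.15 for high_to_high against low_to_low (limma adjusted p = 0.665). The other 5 regions ranged from 6.17 to 15.6 at day 9. Log2 fold changes of the 7 regions lay between -0.16 and 0.11 for YFP-high against YFP-low. A Dgkd region at 87936493 to 87936771 was called in 7 of the 8 day 9 libraries, at 7.67 in high_to_high replicate 2, 7.89, 10.1 and 10.6 in low_to_high and 12.2, 10.0 and 10.3 in low_to_low libraries, and was missing in high_to_high replicate 1.

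Dgkh, the other type II gene, spans 173381 bp and had the widest range of log2 fold changes among the 5 genes outside Dgkg. Its largest difference lay at chromosome 14, 78618844 to 78619132, which held 14.3 and 10.8 in high_to_high, 10.9, 9.21 and 13.9 in low_to_high and 9.71, 8.96 and 6.87 in low_to_low libraries. Both high_to_high libraries were above all 3 low_to_low libraries, whereas low_to_high overlapped with both groups. The log2 fold change was 0.80 ± 0.21 for high_to_high against low_to_low (limma adjusted p = 0.0669), 0.64 ± 0.17 for YFP-high against YFP-low (limma adjusted p = 0.0862) and 0.54 ± 0.19 for low_to_high against low_to_low (limma adjusted p = 0.629). None of these passed 0.05. With the replicate number as a block, limma called the high_to_high and the YFP-high differences (adjusted p of 0.0188 and 0.0424). That block also ties the high_to_high libraries to the others by number, although they did not deviate together with their same-numbered libraries. In the fit with the in-peak share as covariate the values were 0.41 ± 0.31 and 0.25 ± 0.26 in the same order (limma adjusted p of 0.992 and 0.999). That fit separates the share poorly from YFP state and called 0 regions of the whole genome. The region was not called in the effector library and held 29.0 in antigen_experienced and 16.9 in naive cells.

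Nearer the start, 3 neighbouring Dgkh regions had lower values in high_to_high than in both other day 9 groups. The region at 78699198 to 78699533 held 7.55 and 6.50 in high_to_high, 13.4, 10.7 and 10.3 in low_to_high and 14.3, 14.2 and 11 in low_to_low libraries. That at 78692093 to 78692323 held 12.0 and 11.3 in high_to_high, 19.4, 16.3 and 14.2 in low_to_high and 20.5, 20.9 and 15.9 in low_to_low libraries. That at 78687771 to 78687985 held 19.4 and 19.5 in high_to_high, 28.0, 30.2 and 25.7 in low_to_high and 33.3, 30.1 and 26.4 in low_to_low libraries. In each of them the high_to_high libraries were below every other day 9 library, and the low_to_high and low_to_low libraries overlapped. These values are uncentred, and uncentred signal was generally weaker in high_to_high (median log2 fold change of -0.30 against low_to_low over all tested regions). After centring, the high_to_high libraries were still below every other day 9 library in each of the 3 regions. At 78687771 the mean of low_to_high was then above that of low_to_low by 0.08 (log2), which reverses their uncentred order. Such separation was frequent: centred high_to_high libraries stood apart from low_to_low in 25.6% of all tested regions and from low_to_high in 18.5%, in either direction.

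Their log2 fold changes for high_to_high against low_to_low were -0.52 ± 0.19, -0.37 ± 0.17 and -0.30 ± 0.14 (limma adjusted p of 0.296, 0.471 and 0.475), and those for low_to_high against high_to_high were 0.51 ± 0.19, 0.35 ± 0.17 and 0.38 ± 0.14 (limma adjusted p of 0.923, 0.974 and 0.923), in the same order. The values did not pass the test. These contrasts share the high_to_high libraries. At the 5 tested Dgkh regions within 53497 bp of the start the log2 fold change of high_to_high against low_to_low was -0.52 to -0.12, and at the 5 farther in it was 0.12 to 0.80. This split by position was noticed after the values were seen and was not tested. Of the 5 farther regions, that at 78668411 to 78668647 held 13.6 and 10.3 in high_to_high, 13.4, 20 and 16.1 in low_to_high and 12.7, 14.5 and 11.6 in low_to_low libraries, with 0.49 ± 0.16 for low_to_high against low_to_low (limma adjusted p = 0.600).

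**Figure D4:**
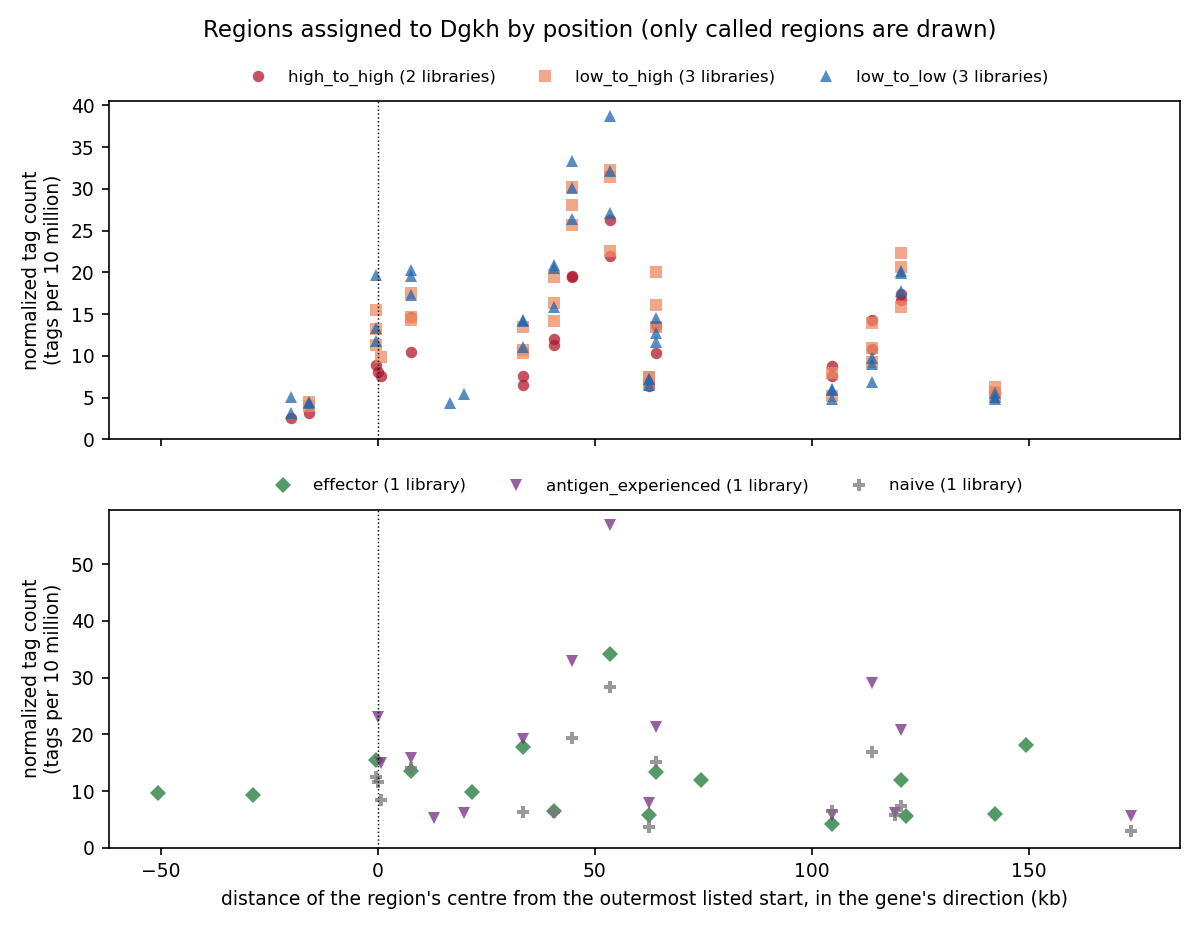
Normalized tag counts of all called Dgkh regions against the distance of the region's centre from the outermost listed start in kb, in the direction of the gene. The upper panel shows day 9 libraries and the lower panel the effector, antigen_experienced and naive libraries, with 1 symbol per library and region. Between 30 and 50 kb the high_to_high circles lie below the other day 9 symbols, and at +113.7 kb they lie above the low_to_low triangles.

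The Dgkh start itself was called unevenly. A region at 78732919 to 78733184 held 8.91 in high_to_high replicate 1, 13.2, 15.5 and 11.3 in low_to_high, 13.3, 19.7 and 11.8 in low_to_low, 15.4 in effector and 12.5 in naive cells. It was not called in high_to_high replicate 2, where the adjoining region at 78732581 to 78732829 was called at 8.09. That adjoining region held 23.0 in antigen_experienced and 11.6 in naive cells. Each of the 11 libraries had 1 of these regions called or both.

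Across the 25 regions of the 5 genes outside Dgkg, limma called 0 in any of the 4 day 9 comparisons. For YFP-high against YFP-low, 3 of 25 had an unadjusted p under 0.05, where 0.332% of all 34383 tested regions were called and 8.07% had such a p. For high_to_high against low_to_low there were 4, where 0.596% of all regions were called and 9.92% had such a p. For low_to_high against low_to_low there were 2 (0.032% called and 5.56%, with 11 regions called in all, or 55 with the replicate block), and for low_to_high against high_to_high 2 (0.0% called and 5.09%). All of these regions lay in Dgkh. The median log2 fold change of the 25 regions was -0.05, -0.09, -0.01 and -0.02 in the same order of comparisons, beside medians of -0.005, -0.007, -0.001 and 0.005 over all tested regions.

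Separation of the groups was also near that of the genome. After centring, 0 of the 25 regions had no overlap between YFP-high and YFP-low libraries, against 5.47% of all regions. The groups did not overlap in 8 of 25 for high_to_high against low_to_low (25.6% of all regions), in 2 of 25 for low_to_high against low_to_low (11.3%) and in 4 of 25 for low_to_high against high_to_high (18.5%). On the deposited scale without centring, where the median region was 0.30 (log2) lower in high_to_high than in low_to_low libraries, limma called 6 of the 25 regions lower and none higher: the Dgkz start, the Dgkd region at 87876113 and the Dgkh regions at 78687771, 78692093, 78699198 and 78724642. The same rule called 21.6% of all regions, 7261 of 7410 of them lower.

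**Figure D5:**
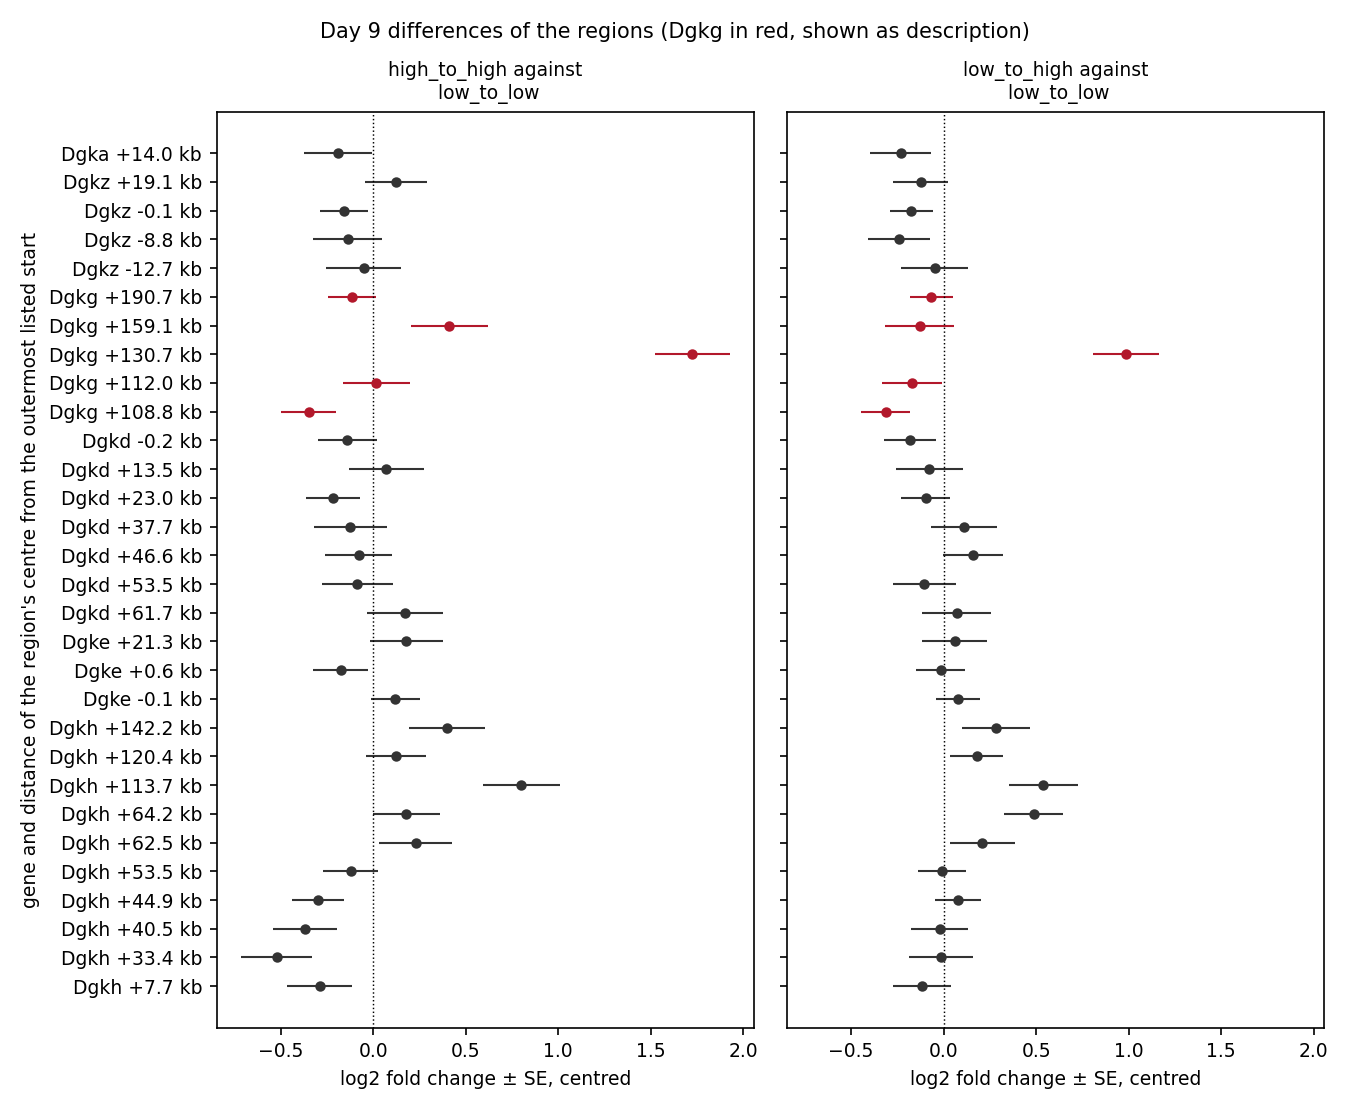
Centred log2 fold changes ± SE of the 30 regions called in all 8 day 9 libraries, for high_to_high against low_to_low (left) and low_to_high against low_to_low (right), on 1 shared axis. Regions run down the page by gene, with Dgkg in red as a description only. The Dgkg region at +130.7 kb stands at 1.73 and 0.99, the Dgkh region at +113.7 kb follows at 0.80 and 0.54, and the lowest value on the left is that of the Dgkh region at +33.4 kb, -0.52.

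Against naive cells, the effector library had higher values in most of the Dgkh regions called in both libraries, and in the chosen Dgkg region. Over the 22 regions called in both libraries, and relative to the median region, which was 0.71 (log2) lower in the effector library, 17 of the 22 differences were positive and the median of the 22 was 0.38. Without centring, 7 of the 22 were positive and the median was -0.34, so many of the signs depend on the scaling. Of the 22, 4 reached 1 on the log2 scale, where 14.6% of all 32333 regions did, and 0 reached -1, where 6.1% did. The largest was the Dgkh region at 78699198, with 17.8 in effector and 6.40 in naive cells, a difference of 2.06. The Dgkh regions at 78612185 (12.0 in effector and 7.33 in naive cells, 1.35) and 78670013 (5.73 and 3.60 in the same order, 1.26) and the chosen Dgkg region (44.4 and 31.6, 1.19) followed. All 9 Dgkh regions called in both had positive centred differences with a median of 0.97, and 6 of the 9 were positive without centring. At Dgkg, 4 of 4 were positive after centring and 1 of 4, the chosen region, without it. The Dgkg regions at 22466474 and 22497967, with 55.2 and 10.1 in naive cells, were not called in the effector library and enter neither count. After centring, the regions at the Dgkz and Dgke starts stood at -0.23 and -0.13. Without centring, only 78699198 reached 1, and the Dgkd region at 87906572 (4.32 in effector and 11.1 in naive cells) reached -1. Each population is 1 library, so there is no test.

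The antigen_experienced library was set beside the naive one in the same way. Of 40 regions called in both, 30 had positive centred differences, with a median of 0.33, relative to a shift of 0.16 of the median region. A difference of at least 1 was held by 3 (3.69% of all 44068 regions did so) and one of -1 or less by 0 (1.07% of all). They were the Dgkh regions at 78699198 (19.2 in antigen_experienced and 6.40 in naive cells, 1.29) and 78612185 (20.7 and 7.33, 1.22) and the Dgkg region at 22493432 (39.6 and 15.7, 1.12). All 8 Dgkd regions were positive, between 0.09 and 0.81. With a pseudocount of 5 in place of 1, none of the 40 reached 1. Without centring, 35 of the 40 were positive and the median was 0.49. The 3 regions named above then stood at 1.45, 1.38 and 1.28, in the same order.

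In presence, the effector library stood apart. Of the 27 regions of the family called in all 8 day 9 and both splenocyte libraries, 12 were missing in the effector library (44.4%, against 21.1% of all such regions): 4 in Dgkd, 3 in Dgkz, 2 each in Dgkg and Dgkh, and 1 in Dgke. In the other direction, 26 of 97 regions were called in the effector library alone (26.8%, against 23.4% of all regions), and 12 of these lay at Dgkg. The strongest were 32.6 in Dgkd at 87885643, 32.2 in Dgkg at 22633088, 25.6 near Dgkg at 22661186, and 24.6 in Dgkg at 22632573 and near it at 22462761. Further ones above 20 were 23.9 in Dgkz at 91947810, and 21.2 and 20.1 in Dgkg at 22563660 and 22501653. The effector list had the lowest median fold over local signal, 6.80 against 7.97 to 10.9 in the other libraries, and the largest share of putative peaks removed by the caller's local filter, 53.3% against 36.4 to 49.9%. The part of these in the presence differences was not tested. Without the effector library the family had 71 regions.

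Other genes that make, bind or use diacylglycerol, or regulate Dgka and Dgkz, were counted beside the family. Limma called 0 of 2 tested regions of the other diacylglycerol kinases (Dgkb, Dgki, Dgkk and Dgkq), 0 of 6 of phospholipase C genes that make diacylglycerol, 0 of 103 of genes for its receptors (protein kinase C, protein kinase D and RasGRP genes), 0 of 25 of enzymes that use diacylglycerol or phosphatidic acid, and 0 of 17 of Egr2, Egr3 and Foxo1, which encode regulators of Dgka and Dgkz expression. The count was 0 in all 4 day 9 comparisons, where at most 0.596% of all regions were called, so lists of this size would hold few or no calls at the share of the genome. At an unadjusted p under 0.05, high_to_high against low_to_low had 0, 0, 10, 2 and 1 regions in the order of these lists, and YFP-high against YFP-low had 0, 0, 10, 0 and 1, beside 9.92% and 8.07% of all regions in these comparisons. Median log2 fold changes for high_to_high against low_to_low were 0.03, -0.02, -0.02, -0.0005 and -0.03 in the same order. Among markers of other cells, 1 region 26981 bp from Cd40lg, listed for CD4 and regulatory T cells, moved in the direction of the chosen Dgkg region. In YFP-high libraries it was higher than in YFP-low ones by 0.98 ± 0.16 on the log2 scale (limma adjusted p = 0.00158). Over the 6 tested regions of that list the median centred log2 fold change was 0.14 for YFP-high against YFP-low and 0.02 for high_to_high against low_to_low. On the deposited scale without centring, the strongest regions of its 4 genes summed to 63.2 to 66.2 in high_to_high, 74.4 to 81.4 in low_to_high and 76.8 to 95.4 in low_to_low libraries, and Foxp3 was not called in 5 of the 8 day 9 libraries. On the same uncentred scale the strongest regions of the 6 CD8 T cell genes summed to 213 to 219 in high_to_high, 226 to 263 in low_to_high and 285 to 308 in low_to_low libraries, while the centred median of that list was -0.06 in both comparisons. Limma called no region of the CD8 T cell, B cell, myeloid, natural killer and erythroid lists in any of the 4 comparisons (0 of 10, 11, 8, 10 and 1 tested, and 0, 2, 1, 1 and 0 at an unadjusted p under 0.05 for high_to_high against low_to_low). The part of other cells in the Dgkg difference was not tested.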

How the data were processed

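ATAC-seq peaks of 11 libraries were analysed. Per the file headers, the authors called peaks in each library separately with HOMER 4.10 findPeaks, without a control library, with an FDR of 0.001, a local Poisson p-value of at most 1e-04 and a minimum of 4-fold against the 10 kb around a peak. The deposited signal is a normalized tag count, the tags in a peak per 10 M tags, and the deposited fold over local signal was used only for the stricter alternative. Bowtie2, DESeq2, HOMER 4.10 and the mm10 build are named in the submitters' processing notes, and the role of DESeq2 is not given in the sources used here.

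Peaks overlapping by at least 1 bp were merged over libraries, and each region was given to the nearest RefSeq protein-coding span within 100 kb. Regions called in all 8 day 9 libraries were tested on log2(normalized tag count + 1), each library centred on its median. The fits used limma 3.58.1 (lmFit, eBayes with trend) in R 4.3.3 and Benjamini-Hochberg adjustment over 34383 regions at 0.05. YFP-high against YFP-low was fitted with a model of the YFP states that pools high_to_high and low_to_high. The other comparisons used a 3-group model. Testing only regions called in all 8 libraries leaves out those that fell below the caller's limits in any of them. No interval for counting error was computed. Populations with 1 library each have no test, and differences of at least 1 on the log2 scale were counted. Tables and figures were made with Python 3.11.15, pandas 2.3.3, numpy 2.4.6 and matplotlib 3.10.9. Regions named were those called in all 8 day 9 libraries, the strongest and the start region of each gene, and regions of 1 reference library at 20 or more, as well as the 5 genes most like Dgkg. The regions Dgkz 91961938, Dgkd 87936493, and Dgkg 22493432 were named after their values were seen.

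The members and lists were chosen with earlier results of these data known. Same-numbered low_to_high and low_to_low libraries deviated together (correlations of 0.298, 0.136 and 0.161), so the numbers were taken to pair these groups, while high_to_high did not pair with either (-0.0407 to -0.0012). The labels state no pairing, and the main fits do not use it. The replicate block ties all 3 groups by number, high_to_high included. Alternatives were another pseudocount, no centring, cyclic loess, a floor, the replicate block, a covariate, stricter peaks, another overlap and leaving out each library. The fit of YFP-high against YFP-low was also run on simulated data, and its outcome is not given here. Promoter sequences are from RefSeq on GRCm38.p6.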

Additional observations from a re-analysis of the deposited data

Results flagged for a closer look

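Of the 30 regions tested, 1 had a library far from the rest of its YFP state. At the Dgkz start, low_to_high replicate 1 stood at 52.8, above the other 4 YFP-high libraries at 39.6 to 41.1, and its gap to the nearest of them was 0.886 of the range, against a limit of 0.71. About 1 in 20 such sets of libraries exceeds that limit by chance.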

How the results depend on the processing

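The count of called regions outside Dgkg was 0 in all 16 alternatives for low_to_high against low_to_low and for low_to_high against high_to_high. For YFP-high against YFP-low it was 1 on the deposited scale (the Dgkz start, lower, limma adjusted p = 0.0464), 1 with the replicate block (Dgkh 78618844, higher), and 0 to 1 with a library left out: that Dgkh region was called without low_to_high replicate 2 (limma adjusted p = 0.0218) and without low_to_low replicate 1 (0.0320). For high_to_high against low_to_low it was 6 on the deposited scale, 1 with a pseudocount of 5, 1 at a mean of at least 10 (of 19 tested), 1 with the replicate block and 0 to 1 with a library left out (without low_to_low replicate 1, limma adjusted p = 0.0186). The single calls were again Dgkh 78618844, whose limma adjusted p ranged from 0.0186 to 0.992 over these alternatives. The replicate block changed no other member's call. The cause was not tested. The day 9 values of the chosen Dgkg region kept their direction throughout and ranged from 0.80 to 1.42 for YFP-high against YFP-low, 1.26 to 1.83 for high_to_high against low_to_low, 0.67 to 1.10 for low_to_high against low_to_low, and -0.87 to -0.57 for low_to_high against high_to_high. The family had 64 regions at a normalized tag count of at least 10, 69 from peaks of at least 6-fold over local signal, 101 at a 50 bp overlap and, in an alternative chosen after seeing the data, 71 without the effector library. In effector against naive cells, 1 region reached a difference of 1 on the deposited scale and 2 with a pseudocount of 5, and in antigen_experienced against naive cells 0 did with a pseudocount of 5. Over all regions, the number called was 114 for YFP-high against YFP-low (213 with the replicate block, 15 to 210 with a library left out, 0 with the covariate) and 205 for high_to_high against low_to_low (374, 68 to 315 and 0 in the same order). For low_to_high against low_to_low, whose libraries were taken to be paired by number, it was 11 in the main fit, which ignores the pairs (55, 0 to 56 and 0). On the deposited scale it was 2022 for YFP-high against YFP-low, 1943 of them lower, and 7410 for high_to_high against low_to_low, 7261 of them lower. Values near the lowest of a list are limited by depth.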
